A study of Mus musculus with 4 samples.

Results

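Grem1 and Fmn1 were examined as 1 chromatin landscape on mouse chromosome 2, and both genes were chosen by name. The choice used no measured value of the genes, but earlier results of these data were known when it was made. They are 2 of 22380 annotated protein-coding genes. Accessible sites were taken from 100 kb beyond Grem1 to 100 kb beyond Fmn1, an interval of 630.9 kb at chr2:113067893-113698803 (mm9). This interval held 177 of the 307082 sites that the deposited lists contain, and overlapping sites merged into 36 of 74669 regions.

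Open chromatin was mapped by ATAC-seq, an assay that inserts sequencing adapters into accessible DNA with the Tn5 transposase. Limbs of E11.5 mouse embryos, labelled as fore- and hindlimb, were dissociated to single cells and fixed in 1% PFA. The 2 mutant libraries (genotype labelled as a stop cassette insertion) and the 2 wild-type libraries had the same tissue, stage and strain background, c57bl6.J X 129S6.sv. The study is about the non-coding locus Maenli near En1, which is on another chromosome than Grem1. The labels used here do not give the zygosity of the insertion, the number of embryos in a library, or whether libraries came from separate embryos, so a p-value measures only the spread between these libraries, which may be technical. One list of peak summits, positions of 1 bp, was available for each library, with a score that reads as the −log10 of a q-value. Scores were turned into percentiles within their own list, from 0 for the weakest to 100 for the strongest summit.

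Grem1 encodes Gremlin 1, a secreted protein that binds bone morphogenetic proteins (BMPs) and keeps them from their receptors. In the limb bud, Grem1 in the mesenchyme links Sonic hedgehog, made by the posterior organizer, to the fibroblast growth factors of the apical ectodermal ridge, and loss of this loop leaves distal limb elements fused or missing. Fmn1 encodes a formin, a protein that assembles actin filaments. Limb enhancers of Grem1 lie inside and around the neighbouring Fmn1 gene, and the classical limb deformity alleles disrupt this shared landscape. The genes are transcribed toward each other, so the Fmn1 promoter is at the far end of the landscape as seen from Grem1.

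Fmn1 (ENSMUSG00000044042.11, plus strand) spans chr2:113167893-113556924, or 389 kb, and has 10 distinct annotated transcript starts. Grem1 (ENSMUSG00000074934.3, minus strand) spans chr2:113586321-113598803, or 12.5 kb, with 1 start. Their starts are 430.9 kb apart, and 29.4 kb separate the ends of the genes. Fmn1 introns farther than 1 kb from any transcript start make up 56.7% of the interval, intergenic DNA 22.4%, other genes 14.4%, and DNA within 1 kb of a start 4.78%.

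Sequences at the starts of both genes and in Fmn1 introns are shown first, 5′ to 3′ and read from the mm9 genome. They are 300 bases each: the promoters directly upstream of the first Fmn1 start (chr2:113167593-113167892, plus strand) and of the Grem1 start (chr2:113598804-113599103, minus strand), and the 3 highest-ranked Fmn1 intron regions found in all 4 lists (plus strand). Regions are numbered R1 to R36 along the chromosome, and the windows shown are chr2:113268425-113268724 for R8, chr2:113231132-113231431 for R6 and chr2:113514831-113515130 for R25. In the Fmn1 promoter and the intron regions, capitals run from the lowest to the highest position of the strongest summits of the 4 lists. In R25 the capitals reach the end of the window, since the strongest summit of 1 list lies 4 bp beyond it. In the Grem1 promoter, capitals mark the letters GGCGCC, a GC-rich motif of SMAD proteins, and CCAAT, a promoter element. The strongest Grem1 summit of each list lies inside the gene and so outside this window.
Fmn1 promoter: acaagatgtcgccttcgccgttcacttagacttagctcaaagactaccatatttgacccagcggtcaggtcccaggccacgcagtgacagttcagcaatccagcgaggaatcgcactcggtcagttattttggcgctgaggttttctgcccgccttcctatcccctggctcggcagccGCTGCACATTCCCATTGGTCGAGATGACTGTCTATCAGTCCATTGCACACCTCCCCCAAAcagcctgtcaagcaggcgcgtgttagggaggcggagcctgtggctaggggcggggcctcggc
Grem1 promoter: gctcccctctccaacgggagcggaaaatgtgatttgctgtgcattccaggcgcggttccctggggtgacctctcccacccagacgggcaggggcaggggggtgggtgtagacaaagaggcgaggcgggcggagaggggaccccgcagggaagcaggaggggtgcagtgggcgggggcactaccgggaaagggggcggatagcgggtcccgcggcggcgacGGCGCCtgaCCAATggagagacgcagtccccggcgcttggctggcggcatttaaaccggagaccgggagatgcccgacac
R8: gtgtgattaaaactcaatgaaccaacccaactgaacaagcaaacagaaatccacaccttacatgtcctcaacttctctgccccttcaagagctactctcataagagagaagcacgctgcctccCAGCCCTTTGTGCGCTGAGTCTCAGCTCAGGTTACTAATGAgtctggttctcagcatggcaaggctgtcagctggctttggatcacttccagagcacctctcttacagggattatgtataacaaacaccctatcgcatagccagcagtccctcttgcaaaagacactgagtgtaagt
R6: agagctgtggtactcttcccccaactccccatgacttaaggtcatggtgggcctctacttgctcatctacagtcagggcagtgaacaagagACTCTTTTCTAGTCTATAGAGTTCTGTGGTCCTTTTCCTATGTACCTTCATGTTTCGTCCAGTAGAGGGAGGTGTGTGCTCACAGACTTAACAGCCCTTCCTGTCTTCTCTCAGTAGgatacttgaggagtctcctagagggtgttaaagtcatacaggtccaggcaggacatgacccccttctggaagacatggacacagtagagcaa
R25: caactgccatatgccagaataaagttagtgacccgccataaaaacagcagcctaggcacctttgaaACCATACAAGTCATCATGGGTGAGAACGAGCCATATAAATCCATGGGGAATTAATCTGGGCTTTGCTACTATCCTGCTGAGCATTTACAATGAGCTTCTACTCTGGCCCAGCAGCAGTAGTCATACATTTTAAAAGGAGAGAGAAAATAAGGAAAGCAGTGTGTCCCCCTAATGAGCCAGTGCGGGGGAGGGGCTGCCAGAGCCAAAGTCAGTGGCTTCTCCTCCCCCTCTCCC

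The promoters and the intron regions differed in composition. The Grem1 window had a GC content of 69.0% and 26 CG dinucleotides, and the Fmn1 window 58.3% and 18. The windows of R8, R6 and R25 had a GC content of 47.7%, 49.0% and 48.7%, with 3, 1 and 3 CG dinucleotides. None of the 5 windows overlapped an annotated exon.

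The Fmn1 promoter ranked high in every list, and among the strongest sites in all but stop cassette replicate 1. Its region, R4 (chr2:113167270-113168519), held the strongest summit at percentile 95.8 in stop cassette replicate 1, 99.9 in stop cassette replicate 2, 99.5 in wild type replicate 1 and 99.5 in wild type replicate 2. These summits lay 67, 77, 63 and 122 bp upstream of the first annotated start, within 59 bp of each other, in the stretch of capitals printed above. The same layout recurred in each list, with a flanking summit 341 to 373 bp upstream and another 221 to 262 bp inside the gene, both of lower rank. The upstream flanking summit ranked at 73.1, 88.6, 68.4 and 87.2, in the same order of lists, and the one inside the gene at 54.5, 77.7, 53.1 and 32.1. The mean of the strongest summit was 97.8 ± 2.85 (SD, n = 2) in stop cassette and 99.5 ± 0.0576 (SD, n = 2) in wild-type lists, and stop cassette replicate 2 lay above and stop cassette replicate 1 below both wild-type lists (exact permutation test, two-sided, p = 1).

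Grem1, in contrast, had a wide and modestly ranked promoter region. R29 (chr2:113597306-113599487) measured 2182 bp against a median of 1086 bp for regions at gene starts, and only 1.84% of those were as wide. It held 24 summits over the 4 lists (5, 8, 6 and 5), a number that 0.0897% of all regions reached. Most of all regions lie away from starts, and their median width over the genome is 583 bp. The share among regions at gene starts was not computed for the number of summits. The strongest summit within 1 kb of the start ranked at percentile 46.7 in stop cassette replicate 1, 76.2 in stop cassette replicate 2, 39.5 in wild type replicate 1 and 62.2 in wild type replicate 2. The genotypes overlapped, and replicates of a genotype differed by more than the group means did. Means were 61.5 ± 20.9 (SD, n = 2) in stop cassette and 50.8 ± 16.05 (SD, n = 2) in wild-type lists, a difference of 10.7 percentile points (exact permutation test, two-sided, p = 0.667). With 2 libraries against 2, the smallest p this test can give is 0.333, so no comparison of genotypes here could pass 0.05. The direction depended on single lists: without stop cassette replicate 2 the difference was -4.12, without wild type replicate 1 it was -0.697, and with all lists at equal length it was -10.2.

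The 4 lists placed their Grem1 summits at recurring positions. One lay at the start itself, 12, 15 and 3 bp inside the gene in stop cassette replicates 1 and 2 and wild type replicate 2, and 43 bp upstream in wild type replicate 1. A summit 397 to 434 bp upstream, one 516 to 547 bp inside the gene and one 965 to 999 bp inside it were also present in each list. Exon 1 of Grem1 ends 155 bp from the start and exon 2 begins 8491 bp from the start, so the inner summits lie in intron 1. The strongest summit was the one at the start in both stop cassette lists and the innermost of these in both wild-type lists. In wild type replicate 2 the 2 summits ranked almost alike, at 59.8 and 62.2, and in stop cassette replicate 1 they ranked at 46.7 and 39.8. This order of summits was noticed in the values and was not tested.

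**Figure D1:**
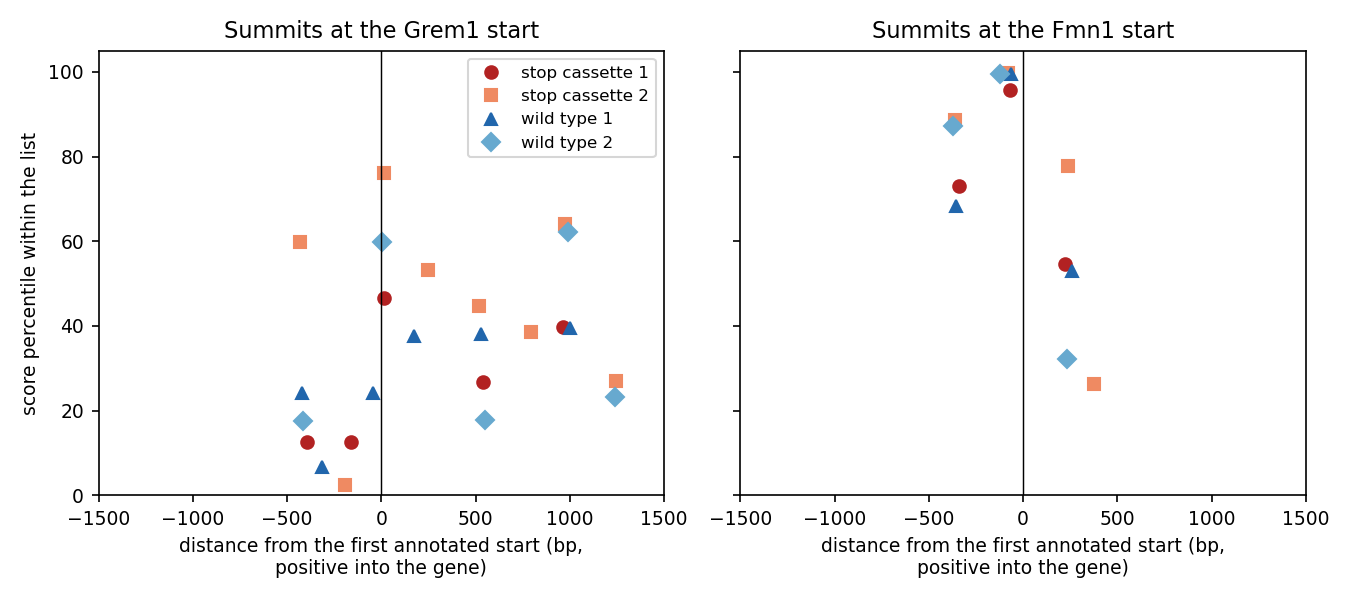
Summits at the Grem1 start (left) and the first Fmn1 start (right): distance from the start in bp, positive into the gene, against the score percentile within each list (0 to 100), 1 symbol per list. At Fmn1 the strongest summits cluster 63 to 122 bp upstream above percentile 95, whereas at Grem1 summits spread from 434 bp upstream to 1247 bp inside the gene and none ranks above 76.2.

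Both genes were set beside the 12860 protein-coding genes, 57.5% of 22380, that had a summit within 1 kb of a start in all 4 lists. Only 5.96%, 8.62%, 6.45% and 8.73% of these genes had a weaker best summit than Grem1 in stop cassette replicates 1 and 2 and wild type replicates 1 and 2. For Fmn1 the shares were 74.5%, 98.9%, 97.8% and 97.5%. Grem1 therefore ranked low by strength in each list and above the median by number of summits, with 5, 7, 6 and 4 summits within 1 kb of the start against medians of 3, 3, 2 and 3. In bulk cells, an accessible site in fewer cells and a less accessible site in all cells cannot be told apart.

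**Figure D2:**
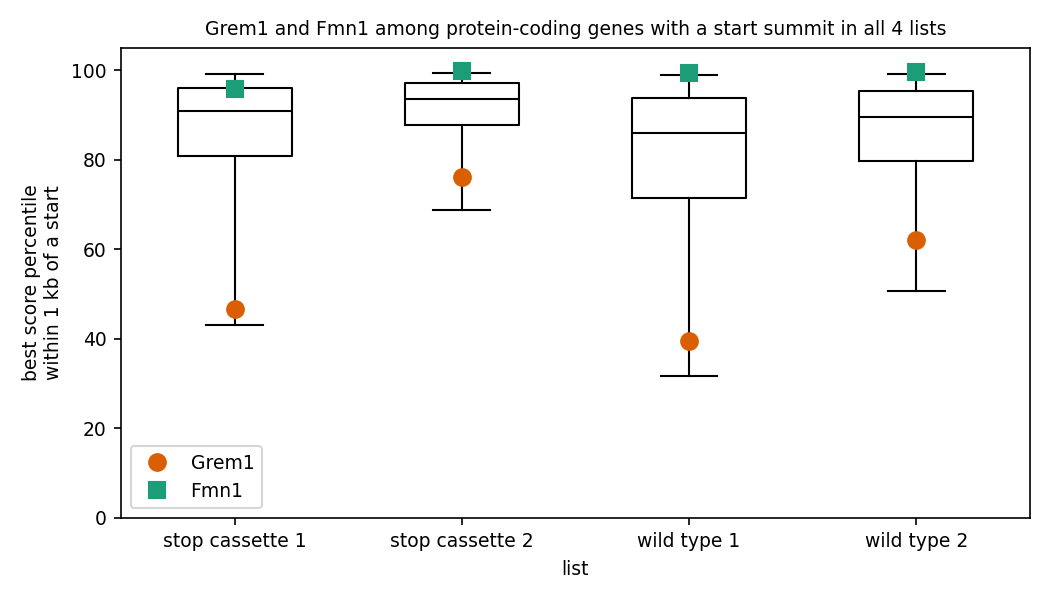
Best score percentile within 1 kb of a start, for Grem1 (circles) and Fmn1 (squares), beside the 12860 protein-coding genes with such a summit in all 4 lists (boxes: quartiles and median; whiskers: 5th to 95th percentile of genes). Grem1 lies below the box and Fmn1 near or above the upper whisker in all lists but stop cassette replicate 1, where Fmn1 lies inside the box.

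Inside Fmn1, a further start was accessible in all 4 lists. R10 (chr2:113280322-113281539) covers the start of transcript Fmn1-002 and that of the opposite-strand transcript Gm13963, inside the gene. Its strongest summit ranked at 53.4 in stop cassette replicate 1, 84.0 in stop cassette replicate 2, 60.1 in wild type replicate 1 and 88.9 in wild type replicate 2. By this summit each genotype had 1 low and 1 high list. These summits lay away from the Fmn1-002 start at position 113281221, at 113280650, 113280584, 113280572 and 113281049 in the same order of lists. The summits nearest to that start lay 9, 15, -7 and 68 bp from it, positive into the transcript. They ranked at 29.5, 50.5, 59.4 and 52.7, without a low and a high list in wild type. The start of Fmn1-008 had a summit in wild type replicate 2 alone (R5, percentile 36.9), and the 5 remaining Fmn1 starts, between positions 113245378 and 113548828, had none within 1 kb in any list.

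Of the neighbours, Arhgap11a had a strong start in every list, at percentiles 95.8, 96.5, 96.4 and 96.6 in R36. Scg5, which encodes the neuroendocrine secretory protein 7B2, ranked at 80.4, 95.4, 83.8 and 85.9 in R35. Grem1 was thus weaker at its start than both genes behind it in each of the 4 lists. Tmco5b, beyond the Fmn1 promoter, had no summit within 1 kb of its start. Of the 7 gene-start regions of the interval, 5 were found in all 4 lists, against 71.5% of such regions in the genome.

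Of the 36 regions, 11 were held by all 4 lists, or 30.6%, close to the 32% of all regions in the genome. The Fmn1 introns, which host limb enhancers of Grem1, contained 20 of the 36 regions and make up 56.7% of the interval's length. Their density, 5.59 regions per 100 kb, was close to the 5.71 of the whole interval and the 5.52 inside other genes, above the 2.82 of intergenic DNA and below the 23.2 of DNA within 1 kb of a start. Stop cassette replicate 1 held 7 of these 20, stop cassette replicate 2 all 20, wild type replicate 1 held 12 and wild type replicate 2 held 15. They lay between 65.1 and 367.5 kb from the Grem1 start, with a median of 201.9 kb, and fell in 11 of the 19 introns of transcript Fmn1-001. Introns 2, 8 and 16 held 3 each, and intron 1, of 36.0 kb, held none.

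**Figure D3:**
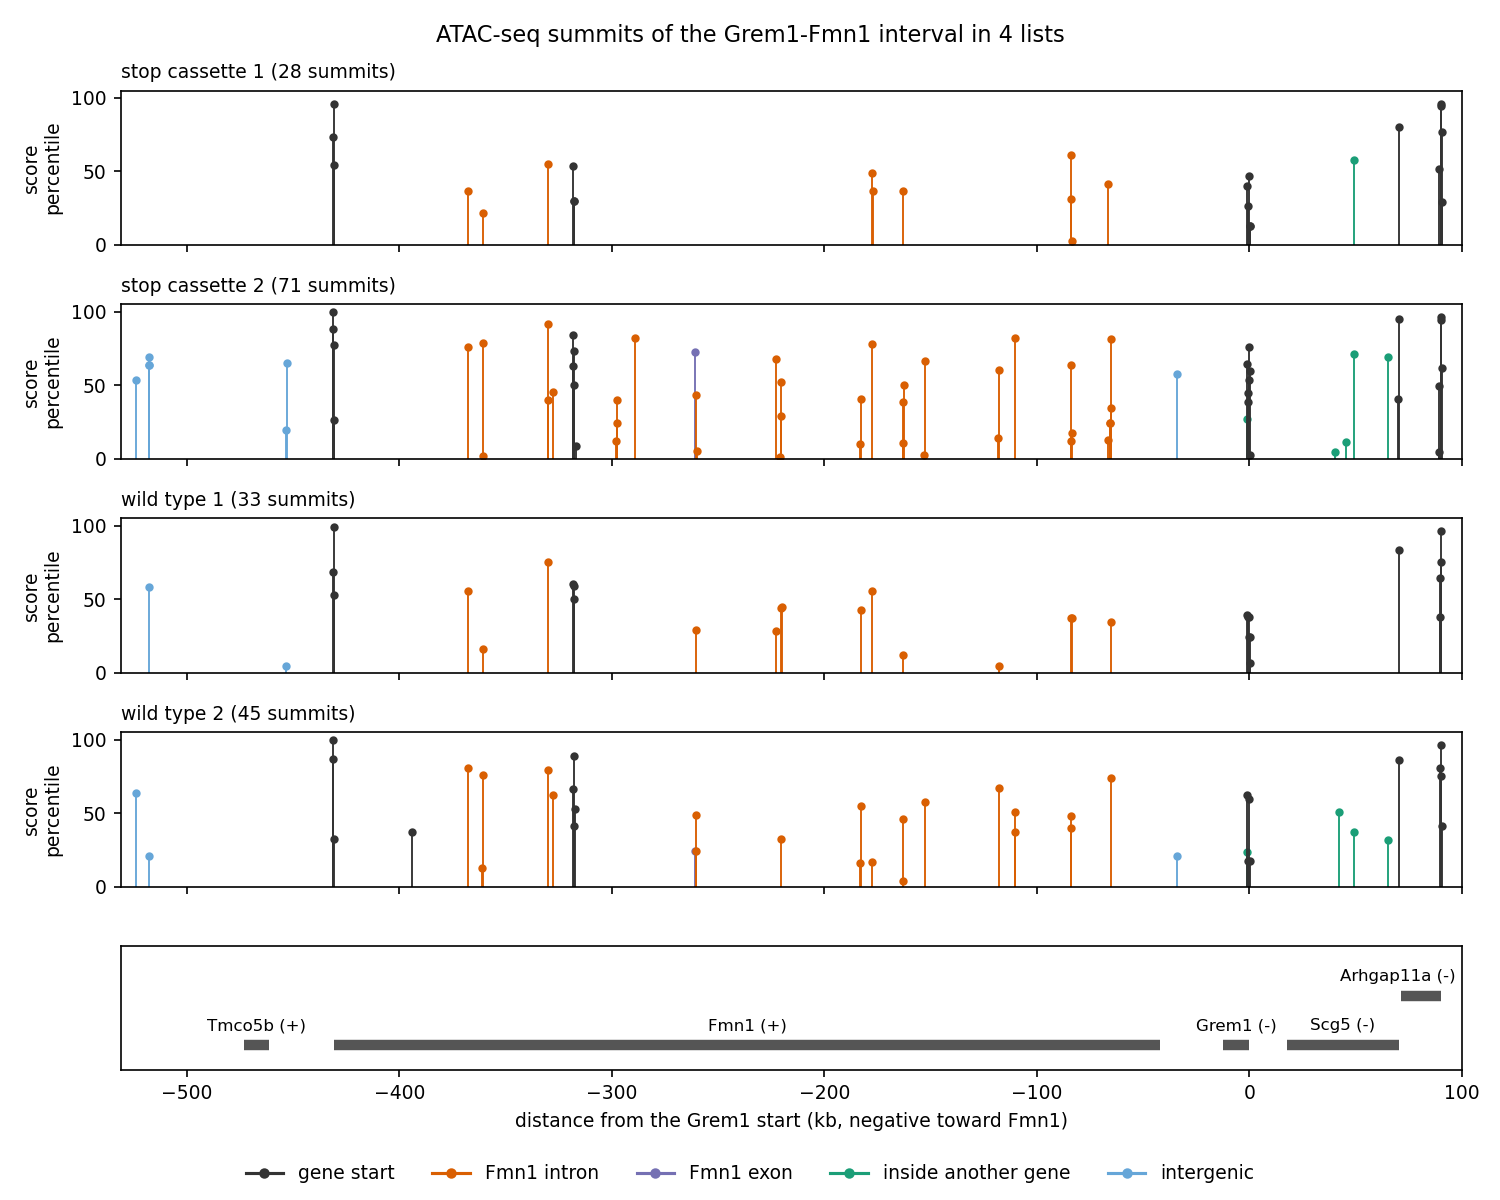
All 177 summits by distance from the Grem1 start (kb, negative toward Fmn1), with the score percentile within the list as height, 1 panel per list and colours for the class of site; the lowest panel shows the protein-coding genes and their strands. The Fmn1 start, 430.9 kb from the Grem1 start, stands highest in each panel, summits of Fmn1 introns fill the interval between the genes' starts, and stop cassette replicate 1 has the fewest.

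Of the 20 intron regions, 6 were present in all 4 lists, or 30%, against 19% of all regions over 1 kb from a start. The highest-ranked was R8 (chr2:113268298-113269048), in intron 2, 330.2 kb from the Grem1 start. Its strongest summit ranked at 54.9 in stop cassette replicate 1, 91.5 in stop cassette replicate 2, 75.7 in wild type replicate 1 and 79.3 in wild type replicate 2. These summits lay within 40 bp of each other, marked by the capitals in the sequence of R8. It was the only 1 of the 5 highest-ranked that stayed in all 4 lists both at equal list length and above the stricter score threshold.

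R6 (chr2:113230973-113231589) is the intron region nearest to the Fmn1 promoter, also in intron 2, 367.5 kb from the Grem1 start. It ranked at 36.8, 75.7, 55.9 and 80.8 in stop cassette replicates 1 and 2 and wild type replicates 1 and 2, with its strongest summits within 116 bp. R7 (chr2:113237346-113238525), further along the same intron and 360.8 kb from the Grem1 start, ranked at 21.6, 78.7, 16.0 and 76.1. In both regions the second replicate of each genotype was the higher one.

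R25 (chr2:113514465-113515789) lies in intron 16, 83.8 kb from the Grem1 start, and with 10 summits and 1325 bp was the broadest intron region. It ranked at 61.1, 63.6, 37.4 and 48.3, higher in both stop cassette lists than in either wild-type list, which was not tested. Its mean percentile of 52.6 fell to 33.3 at equal list length, and above the stricter score threshold only 2 lists held it. R20 (chr2:113421034-113421834) in intron 8 ranked at 49.1, 78.4, 55.6 and 16.7, and R21 (chr2:113435383-113436354) in intron 12 at 36.8, 50.2, 12.2 and 46.1. In both of these the genotypes overlapped. The strongest summits of the 6 regions lay within a median of 130 bp of each other, against 96 bp for all regions over 1 kb from a start that 4 lists share.

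By rank, the Fmn1 intron regions lay near or below the typical distal site in 2 lists and above it in the others. The median best percentile of the intron regions held was 41.2 in stop cassette replicate 1 against 45.8 for all regions over 1 kb from a start, and 36.1 against 37.9 in wild type replicate 1. It was 65.2 against 47.8 in stop cassette replicate 2 and 55.2 against 44.3 in wild type replicate 2. Each genotype had 1 list of either kind.

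**Figure D4:**
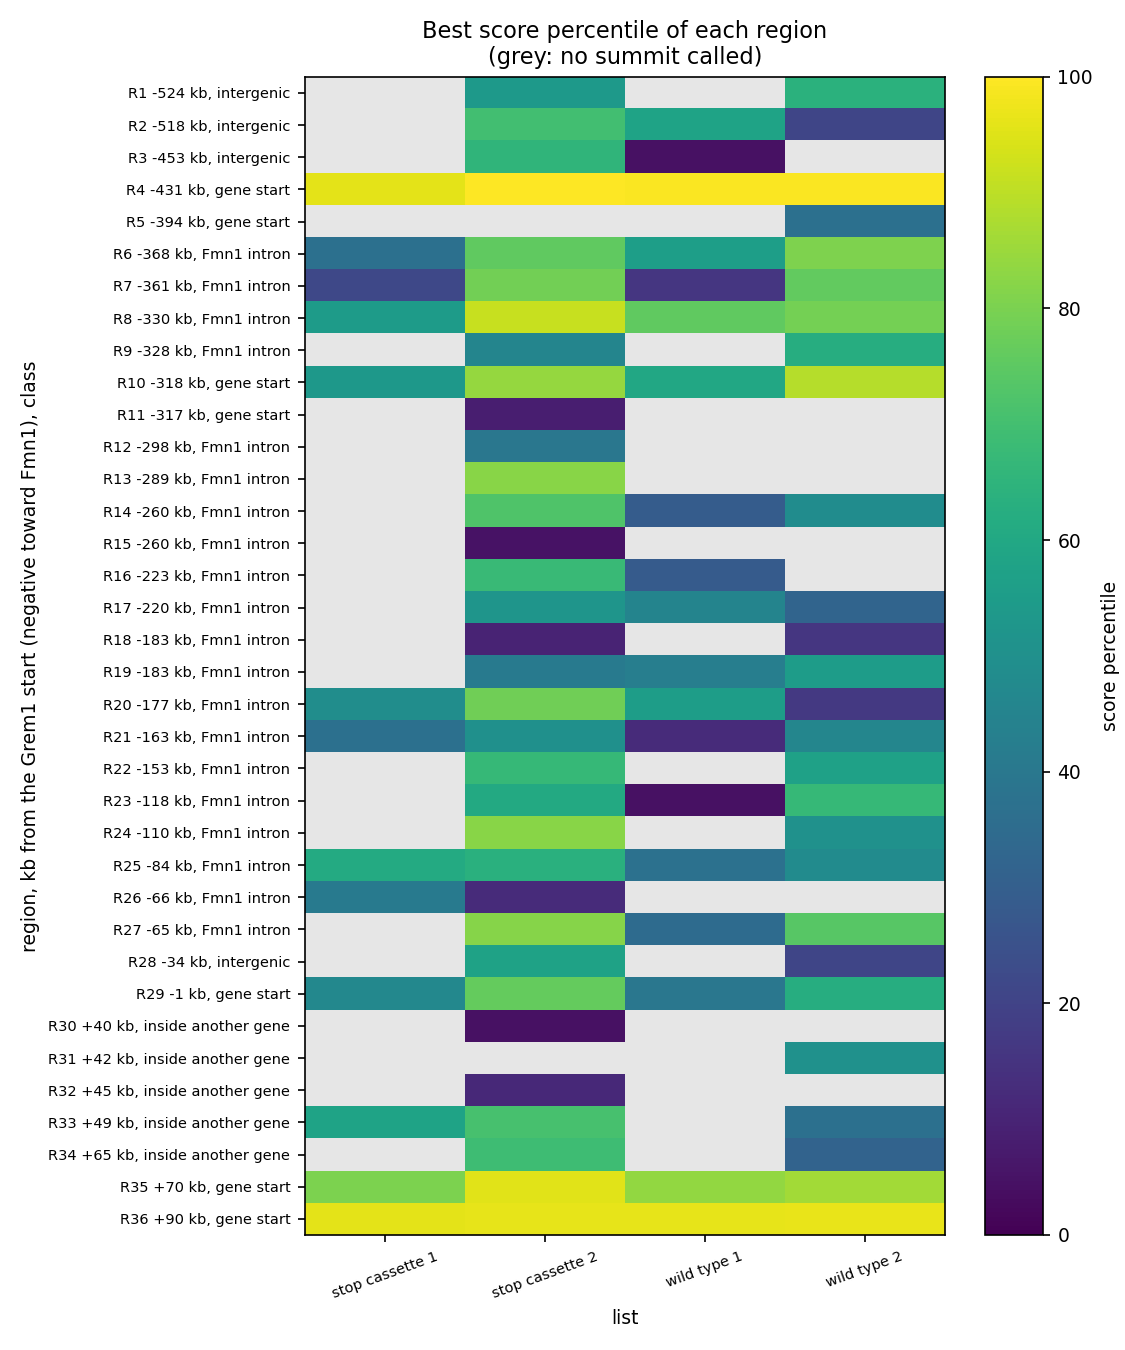
Best score percentile (colour, 0 to 100) of the 36 regions, 1 row each, ordered along the chromosome and named with the distance from the Grem1 start and the class, in the 4 lists (columns); grey marks a list without a summit. The first column has the most grey: stop cassette replicate 1 holds 13 regions and the other lists 34, 19 and 27.

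Only 1 region of the interval was specific to a genotype. R26 (chr2:113532067-113532646), in intron 17 of Fmn1 and 66.5 kb from the Grem1 start, was found in both stop cassette lists, at percentiles 41.2 and 12.4, and in neither wild-type list. The nearest wild-type summits lay 1430 and 1385 bp from it, in the adjacent region R27. It made up 1 of 36 regions, or 2.78%, where 10% of all regions in the genome were held by both stop cassette lists only. Among regions over 1 kb from a start it was 1 of 29, or 3.45%, against 11.7% in the genome. No region of the interval was held by both wild-type lists only, a pattern of 0.313% of all regions. The share of regions of either pattern was thus not above that of the genome. At equal list length, and with summits extended by 500 bp, 0 regions were held by both stop cassette lists only.

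A set of 6 regions was found in every list but stop cassette replicate 1: R2, R14, R17, R19, R23 and R27. All but R2, which is intergenic, are classed as Fmn1 intron by most of their summits. In R14 the strongest summit of stop cassette replicate 2 (percentile 72.6) and 1 summit of wild type replicate 2 (percentile 24) fall in an Fmn1 exon. This was 16.7% of the regions of the interval against 2.97% of all regions. The strongest of them by mean rank was R27 (chr2:113532876-113534036) in intron 18, the Fmn1 intron region closest to Grem1, at percentiles 81.8 in stop cassette replicate 2, 34.8 in wild type replicate 1 and 73.9 in wild type replicate 2. Of the 29 regions over 1 kb from a start, 21, or 72.4%, were missing from stop cassette replicate 1, against 47.3% in the genome. These regions were singled out after their values were seen.

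Intergenic DNA held 4 regions, and none was in all 4 lists. Of these, 3 lie beyond the Fmn1 promoter, 453.1 to 523.9 kb from the Grem1 start, and R28 (chr2:113564577-113565083) lies between the ends of the genes, 34.0 kb from that start. R28 ranked at 57.7 in stop cassette replicate 2 and 20.7 in wild type replicate 2, with no summit in the others. On the other side of Grem1, 5 regions lay inside Scg5. R33 (chr2:113647736-113648241) was the most widely held of these, at 58.0 and 71.1 in stop cassette replicates 1 and 2 and 36.9 in wild type replicate 2.

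Counted per list, the interval held 28 summits in stop cassette replicate 1, 71 in stop cassette replicate 2, 33 in wild type replicate 1 and 45 in wild type replicate 2. The median window of the same length held 13, 22, 10 and 13, fewer than the interval in each list. In stop cassette replicate 1 the interval stayed below the upper quartile of windows, 29. In the other lists it lay above the upper quartiles of 39, 19 and 24. Means were 49.5 ± 30.4 summits (SD, n = 2) in stop cassette and 39 ± 8.49 (SD, n = 2) in wild-type lists (exact permutation test, two-sided, p = 1), and the difference of 10.5 turned to -11 without stop cassette replicate 2 and to -6.5 at equal list length. In percent of the list the 4 numbers were 0.0354 (Wilson 95% interval 0.0245 to 0.0512), 0.0659 (0.0522 to 0.0830), 0.0638 (0.0455 to 0.0896) and 0.0657 (0.0491 to 0.0879), intervals that cover counting error only. Stop cassette replicate 1 was the low list, and the other shares lay within 0.0638 to 0.0659. The share averaged 0.0506 ± 0.0215% (SD, n = 2) in stop cassette and 0.0648 ± 0.00134% (SD, n = 2) in wild-type lists (exact permutation test, two-sided, p = 1). Without stop cassette replicate 1 the difference changed sign, to 0.00107 percentage points.

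Fmn1 introns accounted for 10, 35, 14 and 20 of these summits in stop cassette replicates 1 and 2 and wild type replicates 1 and 2. As a share of the interval's summits this was 35.7% (Wilson 95% interval 20.7 to 54.2), 49.3% (38.0 to 60.7), 42.4% (27.2 to 59.2) and 44.4% (30.9 to 58.8). The wild-type lists lay between the 2 stop cassette lists. Means were 42.5 ± 9.60% (SD, n = 2) in stop cassette and 43.4 ± 1.43% (SD, n = 2) in wild-type lists, and the difference of -0.929 percentage points was smaller than the spread (exact permutation test, two-sided, p = 1). It became 5.86 without stop cassette replicate 1. The median percentile of intron summits was 36.8 and 39.7 in stop cassette and 37.4 and 48.4 in wild-type lists (exact permutation test, two-sided, p = 0.667).

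Gene-start summits varied far less between lists than the others, with 17, 23, 17 and 17. Away from starts, stop cassette replicate 1 held 11 summits and the other lists 48, 16 and 28, or 0.0263% of such summits in its own list against 0.0719%, 0.0733% and 0.0821%. With every list reduced to 51701 summits it still held the fewest in the interval, 19 against 35, 33 and 34. Over the whole list its share of summits near starts, 47.2%, lay between those of the others, which ranged from 38.1% to 57.8%.

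**Figure D5:**
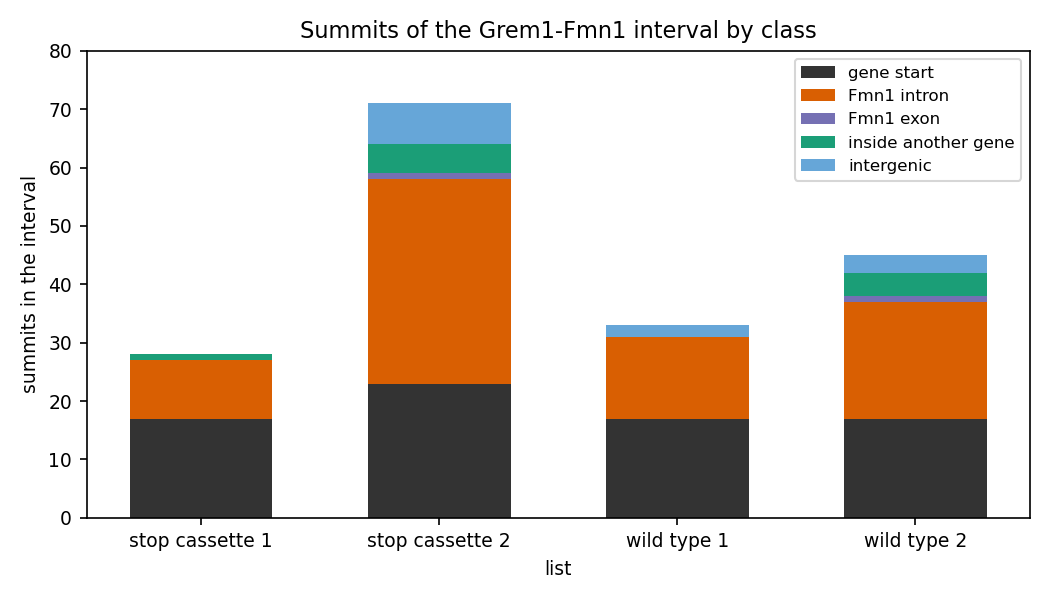
Number of summits of the interval in each list (bars), split by class of site. The black part for gene starts has 17, 23, 17 and 17 summits, and the orange part for Fmn1 introns 10, 35, 14 and 20.

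Markers of the cells were read at gene starts. Of 10 limb mesenchyme genes, 7 had a summit in all 4 lists, not far from the 57.5% of all protein-coding genes, among them Prrx1, Twist1, Hand2, Hoxa13 and Hoxd13, and Tbx5 had none. Of genes of other cells, 1 of 5 ectoderm, 1 of 4 blood, 1 of 3 endothelium, 1 of 3 neuron and 0 of 3 muscle precursor markers did so. The liver genes Alb, Apoa2 and Ttr had none in any list. The blood markers with a summit ranked higher in both stop cassette lists. Gata1, an erythroid transcription factor, ranked at 74.5 and 56.4 in stop cassette and 10.4 and 26.0 in wild-type lists. Klf1, also erythroid, ranked at 84.8 and 67.7 in stop cassette lists and 22.8 in wild type replicate 1, while Hba-a1 and Ptprc had no summit. The muscle precursor genes Pax3 and Lbx1 had a summit in both stop cassette lists only, as did the ectoderm gene Wnt7a. Of all regions in the genome, 10% were held by both stop cassette lists only. Among regions over 1 kb from a start the share was 11.7%, so among regions at starts, the closer match to these genes, it was below 10%. Myf5, the other muscle precursor gene, had a summit in stop cassette replicate 2 alone. Stop cassette replicate 1, the list with the fewest distal summits of this landscape, had the highest ranks of Gata1 and Klf1, and the part of other cells in its low number of summits, and in the ranks at R26, was not tested.

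Other genes of the Sonic hedgehog, FGF and BMP loop were read at their starts in the same way. Of 23 such genes, 18 had a summit in all 4 lists, against 57.5% of all protein-coding genes, including the receptor gene Ptch1, the mediators Gli1, Gli2 and Gli3, Hand2, which acts upstream of Shh, and Fgf10, the mesenchymal growth factor. The 5 others encode signals, but so do Fgf9, Bmp2 and Bmp7, which had a summit in all 4 lists. Fgf4 and Fgf17 of the apical ridge had none, and Shh and Fgf8 had a summit in stop cassette replicate 2 alone, at percentiles 28.5 and 30.1. Bmp4, a ligand bound by Gremlin 1, had one in stop cassette replicate 2 and wild type replicate 2, at 2.09 and 15.3. Over the loop genes held, the median best percentile was 69.1, 83.4, 71.7 and 80.2, below the 90.0, 92.6, 85.5 and 88.6 of all protein-coding genes held. Grem1 lay below the loop's median in each list.

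Among 16 genes for BMP antagonists and related regulators, 12 had a summit in all 4 lists (57.5% of all protein-coding genes did), and Cer1 and Sost had none. Bambi, a decoy receptor, ranked highest, at 99.1, 97.1, 94.7 and 96.6. Grem1 stood beside Fst (68.5, 59.7, 61.0 and 49.15) in this order, with overlapping values. Nog, which encodes Noggin, was weaker, at 1.74, 29.6 and 46.7 with no summit in wild type replicate 1.

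Of 14 formin genes, 13 had a summit in all 4 lists, beside 57.5% of all protein-coding genes, and Fmnl1 had one in stop cassette replicate 2 and wild type replicate 2 only. Fmn1 had the highest mean percentile, 98.7, next to Diap3 at 98.6 and Daam1 at 98.2. Their values overlapped, so the order of these genes does not exceed the spread between lists.

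The best-known similar landscape in the limb, that of Shh and its distant enhancer in an intron of Lmbr1, was less dense. By the same rule it spans 1121.6 kb on chromosome 5 and held 17, 26, 15 and 21 summits, or 1.52, 2.32, 1.34 and 1.87 per 100 kb. The Grem1 and Fmn1 interval held 4.44, 11.3, 5.23 and 7.13 per 100 kb, more in every list. The introns of the host gene Lmbr1 had 3, 3, 2 and 1 summits. With 1 locus of each kind, this is a description with no test.

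The Fmn1 intron regions were somewhat lower in GC than other distal regions inside genes. Their 300-base windows had a median GC content of 45.5%, from 36.3% to 51.7%, against 48.7% for 25990 regions over 1 kb from a start inside protein-coding genes. Motifs of limb regulators were searched on both strands as exact letters. CAATAAA, a motif of the distal HOX13 proteins, was in 2 of 20 windows (R7 and R22), or 10% against 6.56%, and TAATTA, a homeodomain motif, in 2 (R12 and R20), or 10% against 9.35%. CATCTG, an E-box of HAND proteins, was in 3 (R12, R18 and R22), or 15% against 29.7%. GACCACCC, the GLI motif of hedgehog signalling, was in none, against 0.712%, and GGCGCC in none, against 4.44%. The CTCF consensus was in R13 alone, or 5% against 6.76%. In R7 the CAATAAA lay 4 bp from the median of the strongest summits, and in R20 a TAATTA 1 bp from it. A match of letters is no binding site, and its absence from a window says nothing of the factor.

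At the promoters printed above, GGCGCC lay 75 bp and CCAAT 67 bp upstream of the Grem1 start. In the Fmn1 promoter CCAAT was read on the opposite strand, as ATTGG in the capitals, 109 bp upstream of the first start and between the strongest summits of the 4 lists. CCAAT was in 38.95% and GGCGCC in 12.2% of 22367 protein-coding promoters of the same length. CCAAT was added after the sequences had been seen.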

How the data were processed

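Summit lists of 4 ATAC-seq libraries, 2 per genotype, were analysed. The authors deposited positions of 1 bp with a score that, from its lowest value of 1.302 to 1.307 (−log10 of 0.05 is 1.301), was read as the −log10 of a q-value. Reads were mapped to mm9, and Bowtie2 2.2.6 and Picard were used, per the submitters' processing notes. Per the file contents, the peak names record removal of duplicate and mitochondrial reads and a mapping quality of 30. The peak caller and any shift for Tn5 are not given in the sources used here. The lists hold no reads, so depth is unknown, and a score depends on it. Scores were therefore ranked within each list, with ties at the middle rank.

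A summit was classed as gene start within 1 kb of any GENCODE M1 transcript start (mm9), else as Fmn1 intron, Fmn1 exon, inside another gene or intergenic. Of 29 sequence names in the lists, 21 matched the genome, and 0 summits lay beyond a sequence end. Summits were extended by 250 bp on each side and merged over the lists where they overlapped by at least 1 bp. A list holds a region when it has a summit there. Group means were compared by exact two-sided permutation of the 6 assignments. Shares have Wilson intervals at 95%. Alternatives were equal list lengths, a score above 5.83 (the median of the pooled lists), each library left out, other flanks, extensions, overlaps and distances to a start, and replicate numbers as pairs. Region counting was run on 3400 simulated regions and recovered 200 of 200 planted for each genotype. These regions lay far apart, with the summits of different lists close together, so full recovery was fixed by the setting. It checks the counting code only and not the regions called here.

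Named regions are those at the starts of the genes, the 5 highest by mean percentile among Fmn1 intron regions in all 4 lists, and all specific to a genotype; others were chosen after their values were seen. The printed promoter windows end before the annotated start and are not centred on the summit. The members, gene lists and tests were chosen with earlier results of these data known. Peak names in both wild-type lists share 1 replicate number, followed by a sub-number, whereas the stop cassette lists have separate numbers. Python 3.11.15, numpy 2.4.6, scipy 1.17.1 and matplotlib 3.10.9 were used.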

Additional observations from a re-analysis of the deposited data

How the results depend on the processing

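Summit lists carry no depth, and with 2 libraries per genotype no difference could pass 0.05. Of 117 values recomputed under alternatives, 84 kept their direction or stayed near their size, 22 moved further and 11 changed sign. The 84 include values that could not change. These are the differences with replicate numbers as pairs and the median percentile of Fmn1 intron summits under other flanks. The mean percentiles of R8, R6, R25, R20 and R7 with 1 library left out were also bound to be counted in the 84. Such a mean counted as moved only from a shift of 1 SD of its 4 values, which leaving out 1 of them cannot reach. At equal list length the difference in summits (stop cassette minus wild type) was -6.5 in place of 10.5, regions held by both stop cassette lists only fell to 0, and those held by both wild-type lists only rose to 1. Above the stricter score the difference in median percentile of Fmn1 intron summits was 15.8 in place of -4.63, stop cassette-only regions were 2 and regions in all 4 lists 5 in place of 11. At that score no Grem1 start summit was left in wild type replicate 1, so its difference could not be computed. A flank of 200 kb gave 1 wild type-only region. For extensions of 50, 100 and 500 bp, stop cassette-only regions were 3, 2 and 0, wild type-only regions 4, 1 and 0, and regions in all lists 17, 16 and 12. A reciprocal overlap of 50% gave 2 stop cassette-only regions.

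Leaving out 1 library at a time, the difference in summits ran from -11 to 32, in share of the list from -0.0294 to 0.00107 percentage points, in the share of Fmn1 introns from -7.72 to 5.86 and in median percentile from -10.15 to 0.883. Stop cassette-only regions ran from 1 to 7 (7 if stop cassette replicate 1 is left out, 2 if wild type replicate 2 is), wild type-only from 0 to 6 (6 if stop cassette replicate 2 is left out, 2 if wild type replicate 1 is) and regions in all remaining lists from 11 to 17 (17 without stop cassette replicate 1). At the starts, the Grem1 difference ran from -4.12 to 25.4, with -0.697 without wild type replicate 1, and was -10.2 at equal length. The Fmn1 difference ran from -3.66 to 0.368.

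With replicate numbers as pairs (replicate block) the differences stayed 10.5 summits, -0.0142 and -0.929 percentage points and -4.63 percentiles, with exact permutation p of 1, 1, 1 and 0.5 (smallest possible 0.5). Deviations of same-numbered libraries correlated at 0.181 over 23894 regions, and the labels do not say that numbers pair libraries.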

Other observations

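Outside the comparisons, the regions R22 (chr2:113445387-113446395, in intron 15 of Fmn1) and R28 (chr2:113564577-113565083, between Fmn1 and Grem1) each held both CAATAAA and CATCTG. The letters lay 91 and 27 bp from the median summit of R22 and 83 and 17 bp from that of R28, on the same side in both. They were on the minus strand in R22 and the plus strand in R28, so the arrangement differs when read along the motifs. How many regions of the genome hold both motifs was not counted. Both regions were held by the same lists, stop cassette replicate 2 and wild type replicate 2, at percentiles 66.8 and 57.4 for R22 and 57.7 and 20.7 for R28. R13 (chr2:113309575-113310075, inside Fmn1) was held by stop cassette replicate 2 alone although it ranked at 82.2 there, and the nearest summit of another list lay 28258 bp away. All 3 were chosen after their values were seen.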
